A study of Rattus norvegicus with 28 samples.

Results

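The genes described here are the matrix proteases and their inhibitors: the matrix metalloproteinases (Mmp genes), the tissue inhibitors of metalloproteinases (Timp), and the Adam and Adamts proteases, in rat spinal cord after contusion and after transplantation of neural progenitor cells (NPCs). They were taken as every gene name of the array that begins with Mmp, Timp, Adam or Adamts followed by a digit, with no use of any measured value. The rule gave 65 genes of the 35469 features on the array, namely 23 Mmp, 4 Timp, 23 Adam and 15 Adamts genes. These rested on 75 probes, with 1 probe for 55 genes and 2 probes for the other 10.

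All animals were adult female Sprague Dawley rats, and the RNA of 28 spinal cords was measured on arrays of 1 dye, with 7 groups of 4 arrays. T0 was the group without contusion, which the labels call sham and the methods call uninjured. T1, T2, T4 and T8 were rats sacrificed 1, 2, 4 and 8 weeks after a contusion of 250 kdyn at thoracic level. T1_NPC rats received NPCs directly after the contusion and were sacrificed at 1 week, and T2_NPC rats received them 1 week after it and were sacrificed at 2 weeks. The NPCs were cultured from spinal cords of injured adult rats, and were injected into the cord. Per the methods, injured control rats received an equal volume of medium without cells, and the groups meant are not named there. The protocols give tacrolimus (FK-506), an immunosuppressant, at 1 mg/kg from before transplantation to the end point, and the sources used here do not settle whether rats without transplantation received it too. Each sample was about 1.5 cm of cord including the epicentre. The labels exclude the dura mater for every group except T2_NPC, where they do not mention it and give a slightly shorter range of segments, so T2_NPC and T2 may also differ in dissection. Each label names a replicate, and the methods give 4 animals a group for the arrays.

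Matrix metalloproteinases are zinc enzymes that cut collagens, proteoglycans, cytokines and cell surface proteins, and most of them are made as inactive precursors that are activated by removal of a propeptide. TIMP proteins bind their active site and block them. ADAM proteins are membrane-bound relatives, some of which shed growth factors and receptors from the cell surface while others lack the zinc-binding site and act in adhesion. ADAMTS proteins are secreted and include enzymes that cut the chondroitin sulphate proteoglycans of the cord and enzymes that process procollagen. After spinal cord injury this system is known for opening the blood-spinal cord barrier, for leukocyte entry and for the remodelling of the scar. RNA levels say nothing of how much of each enzyme was active.

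Several of the strongest responders lie in the same gene cluster, with genes between them that passed in no comparison with T0. The Mmp13, Mmp12, Mmp1b, Mmp3, Mmp1a, Mmp10, Mmp8, Mmp27, Mmp20 and Mmp7 probes were placed within 365 kb on chromosome 8 in the rn4 positions of the array annotation, from 4168554 for Mmp13 to 4533706 for Mmp7. Promoter sequences from RefSeq (build GRCr8) could be matched to 41 of the 65 genes. The 250 bases before the gene start are shown for 4 of the 5 genes of this cluster that rose at T1, and for Timp1, the inhibitor that rose most. Capitals mark 3 motifs searched on both strands: TGANTCA (the AP-1 motif), AGGAAG (a core of ETS motifs) and TATAAA. The motifs do not overlap each other in these 5 sequences.
Mmp7 (chr8:13132793-13133042, plus strand): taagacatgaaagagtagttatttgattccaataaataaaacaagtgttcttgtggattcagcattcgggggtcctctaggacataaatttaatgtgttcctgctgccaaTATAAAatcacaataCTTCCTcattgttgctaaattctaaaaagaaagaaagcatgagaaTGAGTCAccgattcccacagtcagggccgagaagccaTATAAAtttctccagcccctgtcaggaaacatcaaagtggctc
Mmp12 (chr8:12866402-12866651, plus strand): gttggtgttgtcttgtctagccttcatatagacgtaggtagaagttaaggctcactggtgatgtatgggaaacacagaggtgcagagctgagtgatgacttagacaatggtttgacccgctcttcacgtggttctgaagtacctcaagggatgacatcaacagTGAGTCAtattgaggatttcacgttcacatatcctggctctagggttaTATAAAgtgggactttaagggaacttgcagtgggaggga
Mmp8 (chr8:13008640-13008889, plus strand): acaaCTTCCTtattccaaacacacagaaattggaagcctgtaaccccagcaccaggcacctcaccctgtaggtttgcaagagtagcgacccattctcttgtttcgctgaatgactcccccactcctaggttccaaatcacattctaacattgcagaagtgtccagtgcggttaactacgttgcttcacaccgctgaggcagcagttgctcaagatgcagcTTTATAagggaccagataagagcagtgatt
Mmp13 (chr8:12782579-12782828, plus strand): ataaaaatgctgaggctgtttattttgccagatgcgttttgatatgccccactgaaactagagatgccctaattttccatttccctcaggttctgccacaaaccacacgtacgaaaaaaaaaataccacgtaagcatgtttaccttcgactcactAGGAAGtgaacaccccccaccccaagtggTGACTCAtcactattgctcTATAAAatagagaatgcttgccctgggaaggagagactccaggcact
Timp1 (chrX:3771123-3771372, minus strand): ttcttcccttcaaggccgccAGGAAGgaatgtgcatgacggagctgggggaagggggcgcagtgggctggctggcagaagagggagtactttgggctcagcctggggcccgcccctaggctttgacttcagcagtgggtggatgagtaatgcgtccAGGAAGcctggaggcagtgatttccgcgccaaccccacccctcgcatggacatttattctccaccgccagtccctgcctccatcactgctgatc

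The sequences of Mmp7, Mmp12 and Mmp13 each hold TGANTCA between 66 and 87 bases before the start, with TATAAA between 39 and 47 bases before it. Mmp3 rose more than Mmp13 at T1 (1.71 against 1.56) but is not shown. It holds TGANTCA 71 and TATAAA 32 bases before its start. The Mmp8 sequence holds TATAAA on the other strand and no TGANTCA, and the Timp1 sequence holds AGGAAG at 2 positions and neither of the others. Over the matched genes, TGANTCA was present in 8 of 41 (19.5%), against 6.34% of all 33469 promoters of that length, and TATAAA in 31.7% against 12.9%. AGGAAG was present in 39% against 29.5%. Every gene with TGANTCA except Adam19 lies in the chromosome 8 cluster, so that share mostly describes this cluster. Of the genes with TATAAA, only Mmp21, Adam24, Adam34, Adamts1 and Adamts7 lie outside it. The cluster genes Mmp10, Mmp1a and Mmp20 also carry TGANTCA and TATAAA but did not pass the test in any comparison with T0. Of the 20 matched genes that rose at T1, 5 carry TGANTCA. A match is a description of letters and no evidence of a bound site.

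Values are log2 levels from the quantile-normalized table that the authors deposited, averaged over the spots and probes of a gene, and a difference of 1 is a change of 2-fold. Between 74.5% and 82.7% of spots were well above background on an array. For 16 of the 28 arrays, the scanner output deposited for a sample matched the rank order of the value table in a different sample. The value table was used for all levels and tests, and each array took its slide, scan session and background calls from the output with which it matched. When each scanner output was instead read under the sample it was deposited for, none of the 65 genes passed the test in any comparison, so every group difference below rests on the sample names of the value table. The 12 arrays on which both sources agree are 2 of T0, 1 of T1, 2 of T2, 1 of T4, 2 of T8 and all 4 of T2_NPC, and the first scan session held the same arrays without T2_NPC. Tests on these subsets take the spread of the lone T1 or T4 array from that of the remaining groups. With only the 12 agreed arrays, 31 and 29 genes passed at T2 and T8 against T0, where 33.7% and 37.6% of all features were called. Of the 65 genes, 35 were well above background on all 28 arrays, 12 on none, and 18 on some.

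Injury was followed by a broad rise of these genes that lasted through T8. Against T0, 28 of the 65 genes rose and 6 fell at T1 (limma fit over all arrays, Benjamini-Hochberg adjusted p under 0.05 over all features), where 19.2% of all features rose and 25.2% fell. At T2, 28 rose and 7 fell, against 17.8% and 22.3% of all features. At T4, 24 rose and 7 fell, against 17.5% and 21.1% of all features, and T8 gave the same counts against 18.3% and 21.7%. The rises thus made up 43.1% of the 65 genes at T1 and 36.9% at T8, and the falls 9.23% and 10.8%. The median difference over the 65 genes was 0.24, 0.47, 0.19 and 0.16 at T1, T2, T4 and T8, against -0.10, -0.05, -0.06 and -0.04 over all features. All 4 comparisons share the T0 arrays. In all, 21 genes rose at every time point, 3 fell at every time point (Adam23, Adam4 and Mmp24) and 24 passed at none. The matching shares of all features were not computed, so these counts are not set against the array.

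**Figure D1:**
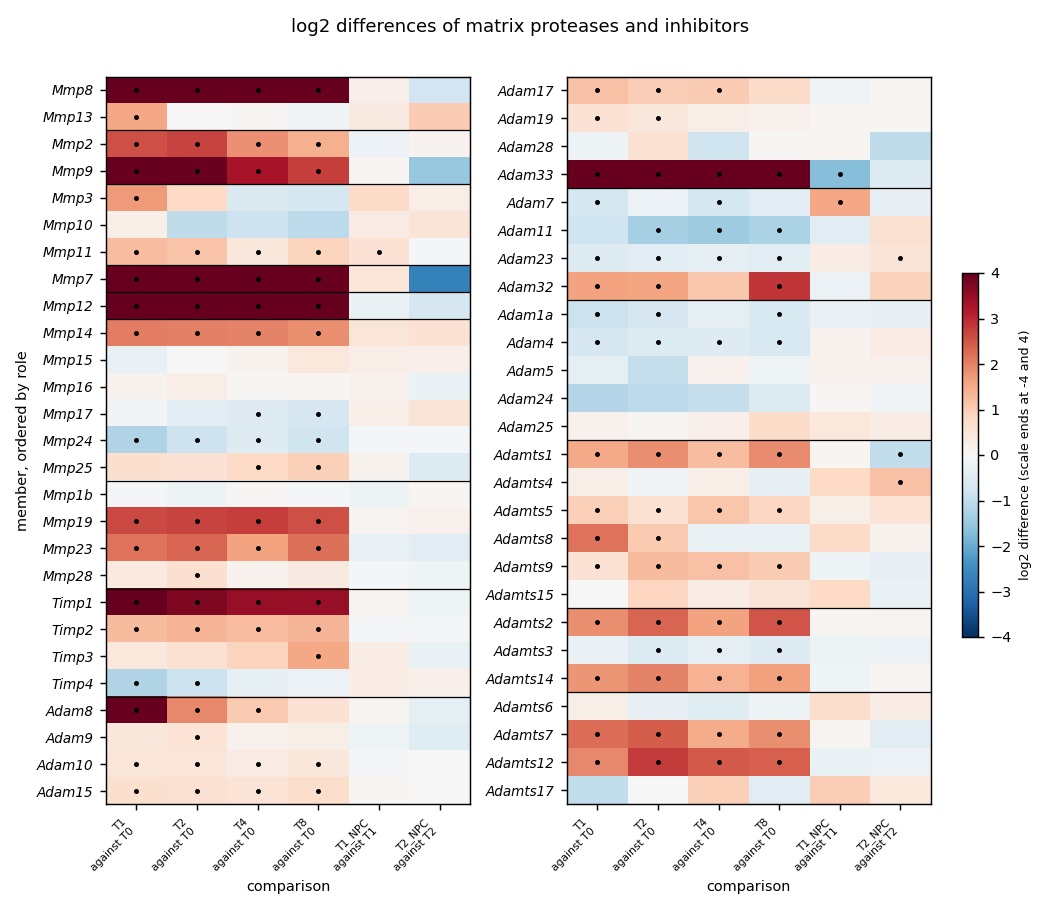
log2 differences of the 53 genes that were well above background on at least 1 array, for the 4 time points against T0 and for both transplanted groups against their time-matched injured group. Colour gives the log2 difference, with values past -4 and 4 drawn in the end colours, black dots mark adjusted p under 0.05 by limma, and horizontal lines separate the roles: collagenases, gelatinases, stromelysins, matrilysin, metalloelastase, membrane-type MMPs, other MMPs and TIMPs, then the ADAMs with and without a zinc site, other ADAMs, hyalectanases, procollagen N-proteinases and other ADAMTSs. At T1, Mmp7, Mmp12, Mmp8, Mmp9, Adam33, Adam8 and Timp1 lie past the upper end of the scale.

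Cell type markers moved in the same samples. Of 11 microglia and macrophage markers, 10 rose at T1 and 9 at T8, and the list's mean log2 level was 9.69 to 10.07 on the T0 arrays against 12.29 to 12.88 at T1. All 7 fibroblast and meningeal markers (including Col1a1 and Lum) rose at T1 and at T8, with list means of 9.50 to 10.08 at T0 against 13.68 to 14.50 at T1. All 5 T cell markers rose at each time point. Of 5 Schwann cell markers, 4 rose at each time point, while Sox10 fell at T1, T4 and T8. The list means were 8.84 to 9.34 at T0 and 12.26 to 12.57 at T8. All 6 neuronal markers on the array fell at each time point, and 4 of 6 oligodendrocyte markers fell at T1. Of 8 neutrophil markers, S100a8 and S100a9 rose at T1 and none passed at T4 or T8, while Mpo was well above background on no T1 or T0 array. In tissue of mixed cells, a change in the number of cells of a type and a change in RNA per cell cannot be told apart, and the part of these markers in the protease differences was not tested.

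Mmp7, Mmp12 and Mmp8 changed most among the matrix metalloproteinases. Mmp7 encodes matrilysin, a small secreted protease without the hemopexin domain of most MMPs (probe at chromosome 8, 4533647 to 4533706, rn4). Its level was 1.37, 3.11, 3.28 and 3.57 on the T0 arrays, none of which was well above background, and 8.47, 8.48, 8.90 and 13.56 at T1. It was 12.14, 13.00, 13.03 and 13.70 at T2.
Every injured array lay far above T0, and the T2 arrays were uniformly high while a single T1 array, replicate 2, reached the T2 range. At T4 the arrays read 9.55, 9.78, 11.61 and 12.87, and at T8 they read 10.61, 11.11, 11.11 and 11.46. For the folds, T0 was set on each array at the higher of its own level and the lowest level well above background. Mmp7 was then 118-fold (T1), 1022-fold (T2), 253-fold (T4) and 275-fold (T8) higher (adjusted p of the limma differences = 2.2e-05, 1.9e-07, 5.0e-06 and 3.3e-06). These folds are not strict lower limits, since their size depends on the background correction. The log2 difference between T2 and T1, 3.11, did not pass the test.

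Mmp12 encodes macrophage metalloelastase. Its T0 arrays read 1.28, 1.46, 2.34 and 5.28, and only 1 of them was well above background. The T1 arrays read 11.02, 11.28, 11.93 and 12.64, and the T8 arrays 9.49, 10.73, 11.38 and 11.63.
No injured array came near the highest T0 array, and T1 and T8 overlapped. The differences from T0 were 9.13, 8.96, 8.59 and 8.22 at T1, T2, T4 and T8 (SE 0.83 each, adjusted p = 5.1e-09 to 3.9e-08). Their size rests on T0 values of which 3 of 4 were not well above background, and with the normexp background, a correction that compresses dim signals, they were 4.92, 4.79, 4.46 and 4.11, all of which passed. Between T8 and T1 Mmp12 differed by -0.91, which did not pass the test.

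Mmp8 encodes neutrophil collagenase. It was well above background on no T0 array, at levels of 1.39, 1.44, 1.45 and 2.01. The T1 arrays read 8.22, 8.72, 9.12 and 9.44, the T2 arrays 7.98, 8.55, 9.28 and 9.90, the T4 arrays 6.22, 6.46, 6.62 and 7.48 and the T8 arrays 5.56, 5.91, 6.18 and 7.46.
The T1 and T2 arrays thus lay above all T4 and T8 arrays. With T0 set as for Mmp7, Mmp8 was 108-fold (T1), 111-fold (T2), 23.8-fold (T4) and 17.8-fold (T8) higher (adjusted p of the limma differences = 1.5e-09, 1.8e-09, 6.6e-07 and 1.6e-06). These folds are not strict lower limits either. Mmp13, the other collagenase on the array, was well above background on 2 of 4 T0 arrays. Its T0 arrays read 2.70, 4.21, 4.59 and 4.74 and its T1 arrays 4.95, 5.63, 5.76 and 6.13, without overlap. It rose by 1.56 at T1 (SE 0.50, adjusted p = 0.013), a call lost without T0 replicate 3, and differed from T0 by between -0.14 and 0.04 at the later time points. Of the 10 genes of the chromosome 8 cluster, Mmp7, Mmp12, Mmp8, Mmp3 and Mmp13 rose at T1, and the first 3 alone at T2, T4 and T8.

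**Figure D2:**
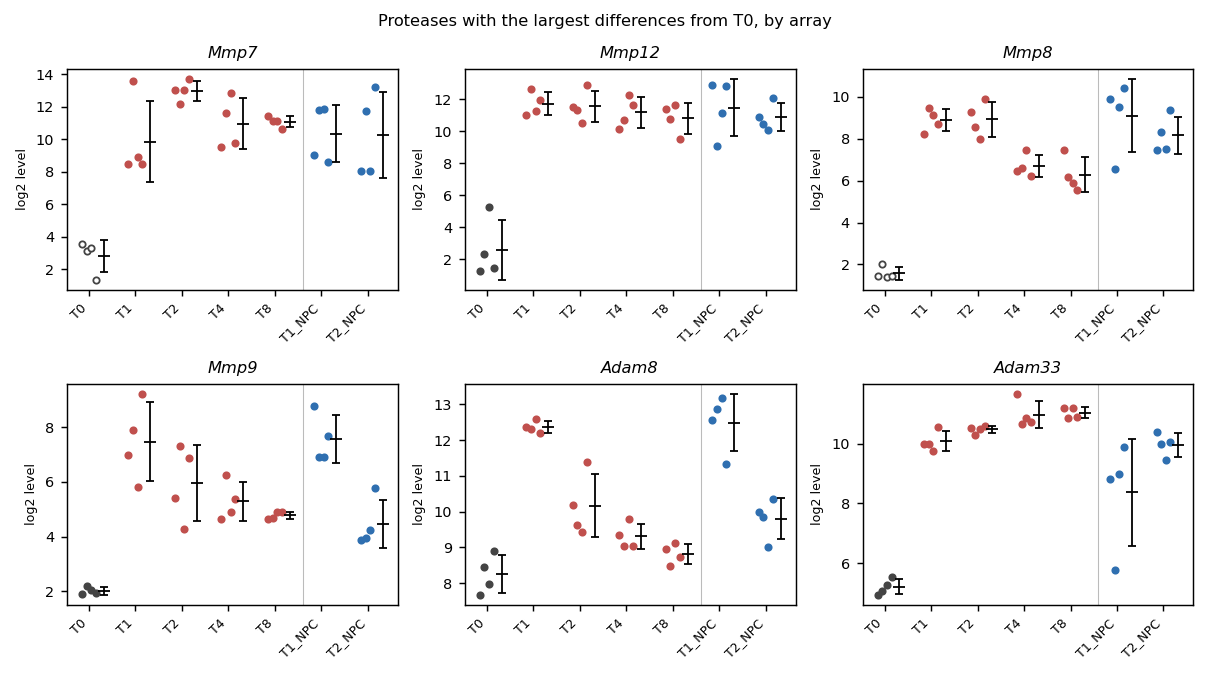
log2 levels of Mmp7, Mmp12, Mmp8, Mmp9, Adam8 and Adam33 by array in the 7 groups, with the group mean and SD (n = 4) beside the points. Open points mark groups in which no array was well above background, grey is T0, red the injured groups and blue the transplanted groups. Mmp7 at T1 has a single array at 13.56 with the others between 8.47 and 8.90, and Adam8 falls from T1 towards the T0 range.

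Both gelatinases, which digest denatured collagen and basement membrane collagen, rose at all time points. Mmp9 (probe at chromosome 3, 155992463 to 155992522, rn4) read 1.89, 1.92, 2.06 and 2.18 at T0, where 1 of 4 arrays was well above background. It read 5.80, 6.98, 7.91 and 9.22 at T1 and 4.66, 4.70, 4.89 and 4.91 at T8. The T1 arrays spread over more than 3 log2 units, while the T8 arrays lay close together and below all of them. The differences from T0 were 5.47, 3.97, 3.29 and 2.78 at T1, T2, T4 and T8 (SE 0.63, adjusted p = 2.1e-07 to 9.8e-04). With the normexp background they were 1.56, 0.81, 0.49 and 0.33, and the last 2 did not pass. These last 2 did not pass in the 12 agreed arrays or within the first scan session either, where T4 is 1 array, and the difference at T2 did not pass within the first session nor that at T8 within the second.
Mmp2 moved less widely, from 8.22, 8.35, 8.50 and 8.51 at T0 to 10.48, 10.85, 11.28 and 11.33 at T1 and 9.61, 9.77, 9.86 and 10.01 at T8. It rose 6.03-fold at T1 and 6.50-fold at T2, and was 2.67-fold above T0 at T8 (adjusted p = 8.0e-09, 5.5e-09 and 4.6e-05). Both Mmp2 probes passed at all 4 time points.

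Among the stromelysins, Mmp3, which activates other pro-MMPs, rose at T1 alone. Its T0 arrays read 4.29, 4.80, 4.97 and 5.31, of which 3 were well above background, and its T1 arrays 6.24, 6.58, 6.66 and 6.74. By T8 the arrays read 3.52, 3.75, 4.43 and 4.84, with 2 of 4 well above background. The rise at T1 was 1.71 (SE 0.42, adjusted p = 0.0018), and the values at T2, T4 and T8 were 0.79, -0.57 and -0.71. Mmp11, which differs from the other stromelysins in being activated inside the cell by furin, rose at all 4 time points, by 1.25, 1.14, 0.46 and 0.89. Mmp10 did not pass at any.
The 6 membrane-type MMPs split. Mmp14, which activates pro-MMP2 at the cell surface, read 12.21, 12.40, 12.48 and 12.91 at T0 and 14.20, 14.35, 14.67 and 14.93 at T1. All 16 injured arrays lay at 14.20 or higher, and the rise was 4.12-fold at T1 and 3.64-fold at T8 (adjusted p = 9.2e-09 and 5.5e-08). Mmp24, a membrane-type MMP known from neurons, fell from 12.91 ± 0.17 (SD, n = 4) at T0 to 11.70 ± 0.44 at T1 and 12.12 ± 0.28 at T8, a decrease in log2 level at each time point (adjusted p = 3.2e-05 at T1 and 0.003 at T8). Its call at T4, a difference of -0.52, was lost in 10 of the 28 fits that left out an array and with the replicate block. The Mmp24 probe was placed on chromosome 4 in rn4, whereas the Mmp24 promoter lies on chromosome 3 in GRCr8. Whether that probe reads Mmp24 was not tested. Mmp17 fell at T4 and T8 (-0.50 and -0.68) and Mmp25 rose at both (0.80 and 0.94), while Mmp15 and Mmp16 passed at no time point. In the fits that left out an array, the Mmp17 call at T4 was lost in 5 and the Mmp25 calls at T4 and T8 in 4 and 3.

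Of the other MMPs, Mmp19 and Mmp23 rose throughout. Mmp19 read 4.87, 5.22, 5.32 and 5.52 at T0 and 7.46, 7.70, 8.01 and 8.37 at T1, and its 2 probes agreed in every call. Its rise of 6.30-fold at T1 was 5.99-fold at T8 (adjusted p = 2.7e-09 and 6.0e-09). Mmp23 rose by 2.18, 2.34, 1.60 and 2.21 at T1, T2, T4 and T8. Mmp28 passed at T2 alone (0.65), and Mmp1a, Mmp1b, Mmp20, Mmp21 and Mmp27 passed at none, 4 of these 5 being well above background on no array.

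The 4 inhibitors each followed a course of their own. Timp1, which inhibits most secreted MMPs and is inducible by inflammatory signals, read 11.03, 11.45, 11.59 and 11.60 at T0 (probe at chromosome X, 12542700 to 12543703, rn4). The T1 arrays read 15.16, 15.55, 15.66 and 15.69 and the T2 arrays 15.04, 15.15, 15.21 and 15.27. The later arrays read 14.78, 14.84, 14.87 and 15.14 (T4) and 14.63, 14.79, 14.91 and 15.32 (T8).
Every injured array lay at least 3 log2 units above every T0 array. The rise was 17.1-fold, 13.4-fold, 11.2-fold and 11.3-fold at T1, T2, T4 and T8 (log2 SE 0.17, adjusted p = 5.8e-15 to 2.2e-13). Timp2, which also helps Mmp14 to activate pro-MMP2, went from 15.89, 15.90, 15.92 and 15.96 at T0 to 17.03, 17.12, 17.16 and 17.38 at T1 and 17.18, 17.25, 17.30 and 17.35 at T8. It was between 2.37-fold and 2.55-fold above T0 at each time point (adjusted p = 2.5e-10 to 1.2e-09).
Timp3, which binds to the matrix and also inhibits ADAM17 and ADAMTS proteases, differed from T0 by 0.42, 0.62, 0.89 and 1.54, and only the value at T8 passed (SE 0.38, adjusted p = 0.0019). Its T0 arrays read 8.15, 8.32, 8.43 and 8.90 and its T8 arrays 9.53, 9.85, 10.23 and 10.37, without overlap. Timp4 moved the other way: 11.28, 11.34, 11.36 and 11.48 at T0 against 9.79, 9.98, 10.19 and 10.73 at T1. It was 2.28-fold lower at T1 and 1.83-fold lower at T2 (adjusted p = 2.7e-04 and 0.0051). At T4 and T8 it differed from T0 by -0.39 and -0.23, which did not pass, although all T4 and T8 arrays still lay below the T0 arrays. Both Timp4 probes gave the same calls.

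**Figure D3:**
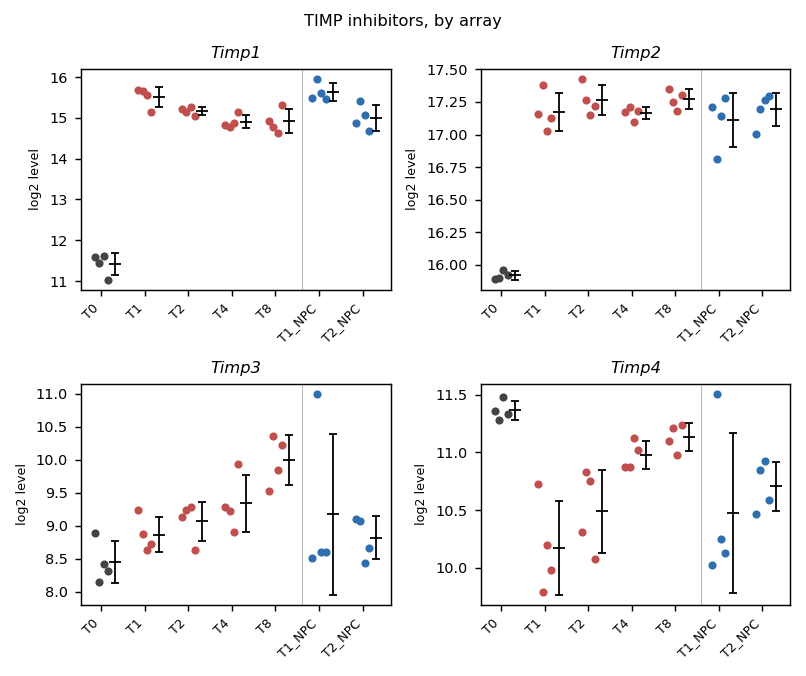
log2 levels of Timp1, Timp2, Timp3 and Timp4 by array in the 7 groups, with group mean and SD (n = 4); colours as in the plot of the proteases, and each panel has its own log2 axis. Timp1 and Timp2 are high in every injured array, Timp3 climbs to between 9.53 and 10.37 at T8, and Timp4 is lowest at T1, between 9.79 and 10.73.

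Of the ADAMs with a zinc site, Adam8 and Adam33 changed most. Adam8, which is known from leukocytes and activated microglia, read 7.68, 7.97, 8.45 and 8.91 at T0 and 12.21, 12.32, 12.35 and 12.59 at T1. The T2 arrays read 9.42, 9.63, 10.19 and 11.40, the T4 arrays 9.05, 9.05, 9.35 and 9.79, and the T8 arrays 8.48, 8.74, 8.95 and 9.13.
The T1 arrays stood above all others, and T8 overlapped with T0. The rise was 17.3-fold at T1, 3.76-fold at T2 and 2.08-fold at T4 (adjusted p = 8.6e-09, 3.0e-04 and 0.034), and the difference at T8, 0.57, did not pass, though it did within the first scan session (0.79). The call at T4 was lost in 4 of the 28 fits that left out an array, with the normexp background, with the slide as a fixed block, in the 12 agreed arrays and within the second scan session. Both Adam8 probes followed this course. Adam33, known from mesenchymal cells of the airway and other organs, read 4.95, 5.08, 5.28 and 5.54 at T0 and 9.76, 9.99, 9.99 and 10.54 at T1, and at T8 it read 10.85, 10.88, 11.19 and 11.19. It was 29.0-fold, 38.3-fold, 54.1-fold and 56.4-fold above T0 at T1, T2, T4 and T8 (adjusted p = 2.9e-09 to 3.6e-08). The difference between T8 and T1, 0.96, did not pass, although their arrays did not overlap.
The sheddases Adam10 and Adam17 and the membrane protein gene Adam15 changed by smaller amounts. Adam10 rose by 0.33 to 0.49 and Adam15 by 0.55 to 0.70 at all time points, and Adam17, which releases tumour necrosis factor, by 1.17, 1.00 and 1.03 at T1, T2 and T4.

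Among the ADAMs without a zinc site, Adam23 and Adam11, which are known from neurons, were lower after injury. Adam23 read 7.90, 7.94, 7.97 and 8.05 at T0 and 7.29, 7.29, 7.48 and 7.73 at T1, and fell by 0.37 to 0.52 at the 4 time points. Adam11 went from 7.06 ± 0.10 (SD, n = 4) at T0 to 5.72 ± 0.68 at T2 and 5.79 ± 0.38 at T8, and fell at T2, T4 and T8, while at T1 it differed by -0.80 and did not pass. Adam7, known from the epididymis, fell at T1 and T4 by 0.71 and 0.72. Adam32 passed at T1, T2 and T8 but was well above background on no T0 or T1 array. With T0 set as for Mmp7, Adam32 was 4.58-fold higher at T8 than at T0, which is not a strict lower limit. At T8, 3 of 4 arrays were well above background, and its call at T2 was lost in 20 of the 28 fits that left out an array. Of the ADAMs placed in neither class, Adam1a fell at T1, T2 and T8 and Adam4 fell at all 4 time points, by 0.53 to 0.66. Adam9 passed at T2 alone (0.54) and Adam19 at T1 and T2. The other 10 ADAMs, among them Adam2 and Adam3a, known from testis, passed at no time point, and 6 of these 10 were well above background on no array.

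The secreted ADAMTS proteases mostly rose. Of the 6 hyalectanases, which cut aggrecan, versican and their relatives, Adamts1, Adamts5 and Adamts9 rose at all time points and Adamts8 at T1 and T2. The Adamts9 call at T1 was lost in 5 of the 28 fits that left out an array. In these fits the Adamts5 call at T2 was lost in 4 and the Adamts8 call at T2 in 1. Adamts1 read 6.82, 6.85, 6.93 and 7.28 at T0 and 8.10, 8.27, 8.70 and 8.84 at T1, and it rose by 1.51, 1.85, 1.23 and 1.88 at T1, T2, T4 and T8 (SE 0.20, adjusted p = 1.6e-06, 1.1e-07, 3.0e-05 and 8.4e-08). Adamts8 read 4.82, 5.07, 5.17 and 5.39 at T0 and 6.68, 7.18, 7.51 and 7.72 at T1. Its T4 and T8 arrays lay between 4.21 and 5.31, in the range of T0 or below it.
Adamts4 and Adamts15 passed at no time point. Of the procollagen N-proteinases, which trim procollagen before fibrils form, Adamts2 rose by 1.86, 2.32, 1.62 and 2.51 and Adamts14 by 1.77, 1.99, 1.40 and 1.63, while Adamts3 fell at T2, T4 and T8 by 0.40 to 0.56. The 2 Adamts2 probes differed in size, with 3.07 and 0.65 at T1, and only the first passed at T4. Adamts14 was well above background on 1 of 4 T0 arrays. Adamts12 read 4.03, 4.29, 4.70 and 4.80 at T0, where 2 arrays were well above background, and 5.74, 6.33, 6.41 and 7.01 at T1. Adamts7 and Adamts12, which cut cartilage oligomeric matrix protein, rose at all time points, by 1.48 to 2.42 and by 1.92 to 2.79.

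Genes that act with these proteases were read from lists. Of the genes of plasminogen activation, a cascade that activates pro-MMPs, Plau (urokinase) and Plaur (its receptor) rose by 6.38 and 6.12 at T1 and by 4.73 and 5.38 at T8, while Plg itself was well above background on no T0, T1, T2 or T4 array. Of 7 activators, inhibitors and receptors of MMPs, 4 rose and 1 fell at each of the 4 time points. Furin, which activates membrane-type MMPs, rose by 1.91 at T1 and 1.08 at T8, Reck, a membrane-bound MMP inhibitor, by 1.01 and 2.05, and A2m, the plasma protease inhibitor, by 1.97 and 1.59. Pcsk6 fell by 0.80 and 0.77.
Of the 5 astacin proteases and enhancers on the array, Bmp1 and Pcolce, which together process the C-terminus of procollagen, rose at all time points, by 1.71 and 3.76 at T1. Of the 5 ADAMTS-like genes on the array, Adamtsl3 and Adamtsl4 rose by 1.44 and 1.38 at T1 while Adamtsl2 and Papln fell. Of the 4 hyalectans, the proteoglycans cut by the hyalectanases, Vcan and Ncan rose at T1 by 1.36 and 0.35, Acan fell by 1.66 and Bcan did not pass.

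The rises were not equally lasting. Between T8 and T1, 8 of the 65 genes were lower (4.46% of all features were) and 2 were higher (5.47% of all features). With 75th percentile scaling, 2682 features were higher and 1357 lower, against 1939 and 1582 without it. Adam8 was 11.6-fold lower, with a log2 difference of -3.54 (SE 0.39, adjusted p = 1.2e-06), Mmp9 -2.69, Mmp8 -2.60, Adamts8 -2.45, Mmp3 -2.42, Mmp13 -1.70, Mmp2 -1.17 and Timp1 -0.60. The Timp1 arrays of the 2 groups overlapped, and those of the other 7 did not. Timp4 was higher by 0.96 and Mmp15 by 0.71 (adjusted p = 0.01 and 0.013). Mmp8, Mmp9, Mmp2 and Timp1 stayed above T0 at T8, as given above, while Adam8, Adamts8, Mmp3 and Mmp13 did not differ from it past the threshold.
Within the arrays of 1 scan session alone, each of these 10 differences kept its sign: 2 of the 10 passed in the first session, which held 8 arrays with 1 of T1, and 7 of the 10 in the second, which held 12 arrays with 3 of T1 and 2 of T8. With only the 12 agreed arrays, where T1 is again 1 array, 3 passed (Adam8, Adamts8 and Mmp3). Without T8 replicate 2, 7 genes passed in place of 10, and Mmp13 and Timp1 lost their call in 6 and 5 of the 28 fits that left out an array.

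**Figure D4:**
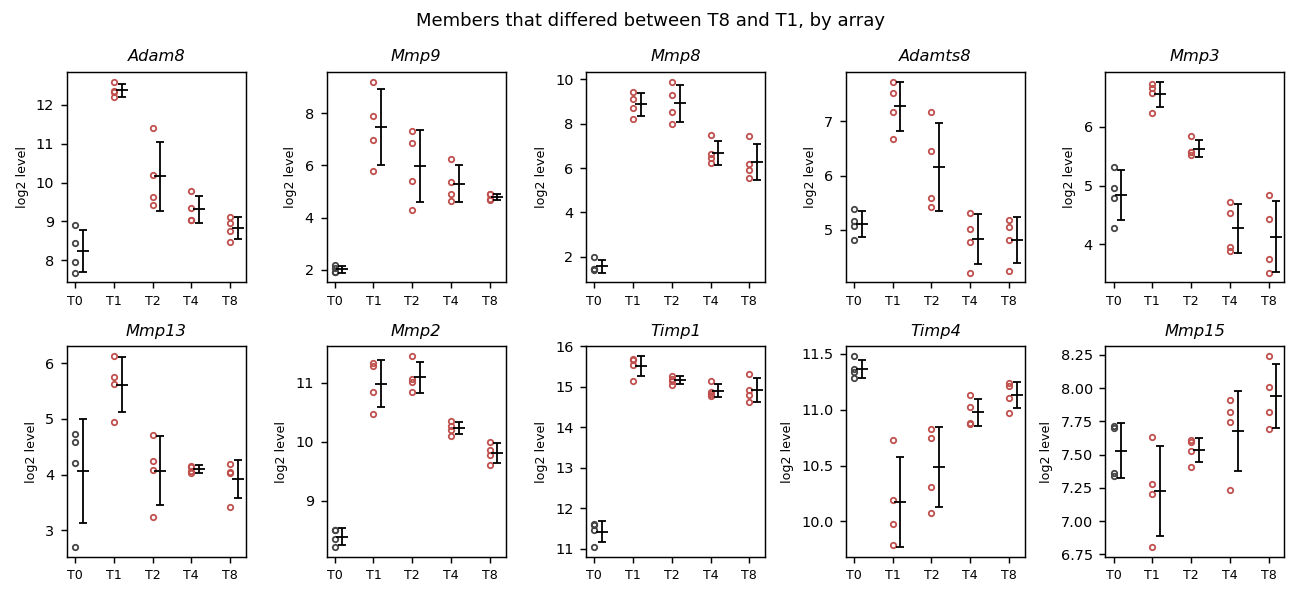
log2 levels by array (open circles) with group mean and SD (n = 4) from T0 to T8 for the 10 genes that differed between T8 and T1; each panel has its own log2 axis. Adam8, Adamts8, Mmp3 and Mmp13 peak at T1 and overlap with T0 at T8, while Mmp9, Mmp8, Mmp2 and Timp1 fall but stay above the T0 arrays.

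Neighbouring time points differed in few of these genes. Between T2 and T1, Adam8 alone passed (-2.20, adjusted p = 0.0037), where 0.671% of all features fell and 0.826% rose. These were 238 features lower and 293 higher, and 227 and 491 with 75th percentile scaling. Adamts8 (-1.12) passed as well with the slide or the scan session as a block and with the normexp background. Adam8 itself passed within the first session (-2.82, with 1 T1 array). It did not pass within the second session (-1.58), in the 12 agreed arrays, which hold the same T1 and T2 arrays as the first session, or in a fit of T1 and T2 alone. Between T4 and T2 and between T8 and T4 no gene passed in limma, with 13 and 6 genes at an unadjusted p under 0.05, and 0.0761% and 0.0987% of all features called. Between T4 and T2, 18 features were higher and 9 lower, and 20 and 31 with 75th percentile scaling. Under other settings 0 to 4 genes passed between T4 and T2, all lower at T4, and none between T8 and T4.

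Transplantation of NPCs came with few differences that passed the test in these genes. At 1 week, T1_NPC differed from T1 in 4 of the 65 genes, 3 higher (5.51% of all features were) and 1 lower (6.51%). At 2 weeks, T2_NPC differed from T2 in 3 genes, 2 higher (4.65%) and 1 lower (4.91%). None of Mmp7, Mmp8, Mmp9, Mmp12 and Timp1 passed in either comparison. The difference for Timp1 was 0.11 at 1 week and -0.16 at 2 weeks (SE 0.17). For Mmp7 the differences of 0.47 and -2.72 had an SE of 1.14, since its T2_NPC arrays read 8.02, 8.04, 11.75 and 13.20 against 12.14 to 13.70 at T2. Each transplanted group sat on a slide of its own, and both were scanned in a session without injured arrays, so transplantation, slide and session cannot be told apart.

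Few cell type markers passed in these comparisons, and some list means did not overlap. In T2_NPC the oligodendrocyte markers averaged 15.16 to 15.28 on the log2 scale against 14.57 to 14.92 at T2, with Mbp and Mobp higher by 1.43 and 0.70. The macrophage markers averaged 12.49 to 12.64 against 12.17 to 12.45, with C1qa higher by 0.61, and the neutrophil markers 3.21 to 3.48 against 3.54 to 5.35, none of which passed singly. These neutrophil means lay near background, where the lowest level well above it was 1.41 to 4.16. Mpo, Ngp and Cxcr2 were well above background on no T2_NPC array, and Cxcr2 on no T2 array. S100b, an astrocyte marker, was higher by 0.53. The endothelial markers averaged 8.99 to 9.12 in T2_NPC against 8.65 to 8.95 at T2, and 9.13 to 9.33 in T1_NPC against 8.84 to 9.04 at T1, with Cldn5 higher by 0.52 and 0.51. At 1 week the macrophage marker P2ry12 was lower in T1_NPC (-1.06). Of 5 skeletal muscle markers, Acta1 was lower at 1 week and Myh4 higher at 2 weeks. The part of these markers in the protease differences was not tested.

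In T1_NPC, replicate 2 stood apart from the other 3 arrays. Its T cell markers averaged 4.94 against 7.33 to 7.95 on the others, its macrophage markers 11.38 against 12.53 to 12.74, its fibroblast markers 12.44 against 13.72 to 14.47, its neuronal markers 12.91 against 11.83 to 12.29 and its neutrophil markers 5.54 against 4.21 to 4.45. Among the proteases and inhibitors, it was lowest for Adam33 (5.77), Mmp19 (7.03), Mmp8 (6.53), Mmp12 (9.07) and Adamts2 (7.59) and highest for Timp3 (11.00), Timp4 (11.51), Mmp3 (9.21) and Adam7 (7.46). Without it, 5 genes in place of 4 passed between T1_NPC and T1.

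Adam33 was the gene that was lower in T1_NPC. Its arrays read 5.77, 8.82, 8.99 and 9.89, against 9.76 to 10.54 at T1, and 3 of the 4 lay below every T1 array. The difference was -1.70 (SE 0.50, adjusted p = 0.028), and -0.83 without T1_NPC replicate 2. It passed in neither a fit of the 2 groups alone nor one with the slide as a random block, and it lost its call without T1 replicate 1, 2 or 4.
Mmp11 read 7.33, 7.80, 7.93 and 7.99 in T1_NPC against 7.10, 7.12, 7.24 and 7.30 at T1, without overlap. Its difference was 0.57 (SE 0.16, adjusted p = 0.019), and it passed in neither of the same 2 fits, nor without T1 replicate 2 or T1_NPC replicate 3. Adam7 read 6.40, 6.65, 6.74 and 7.46 in T1_NPC against 5.05, 5.14, 5.35 and 5.48 at T1 and 5.82 to 6.15 at T0.
The T1_NPC arrays thus lay above both T1 and T0. Adam7 differed by 1.56 (SE 0.21, adjusted p = 5.3e-05), and by 0.62 with the normexp background, where it still passed. The T1_NPC arrays were dimmer than the T1 arrays, with 74.5% to 76.4% of spots well above background against 79.0% to 81.9%. Their median intensity in the scanner output was 105 to 127 against 177 to 192. The part of this in the T1_NPC differences was not tested. Adam6 was the other gene called higher, but it was well above background on no array. Scaling each array to its 75th percentile moved the median difference of all features from -0.01 to 0.11 and gave 15 called genes in place of 4, of which 14 were higher, and 10 of these were well above background on no array. Features called higher were 1954 against 2308 lower with the deposited normalization, and 5301 against 2081 with that scaling.

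At 2 weeks the called genes were others. Adamts4, an aggrecanase, read 9.67, 9.79, 9.80 and 10.07 in T2_NPC against 8.22, 8.60, 8.74 and 9.03 at T2, and was 2.27-fold higher without overlap (adjusted p = 0.0085). All T2_NPC arrays also lay above the T0 arrays, which read 8.28 to 9.29. In T1_NPC Adamts4 read 9.51, 9.73, 9.84 and 9.99 against 8.47 to 9.36 at T1, a difference of 0.78 that did not pass. Adam23 read 7.92, 8.02, 8.06 and 8.21 in T2_NPC against 7.40, 7.45, 7.54 and 7.81 at T2, and 7.90 to 8.05 at T0. It was 1.42-fold higher than at T2 (adjusted p = 0.0091), with its arrays in the range of T0 or above.
Adamts1 read 7.58, 7.64, 7.76 and 8.37 in T2_NPC against 8.49, 8.64, 8.89 and 9.27 at T2, and was 1.98-fold lower (adjusted p = 0.0033), with all arrays still above T0. Adamts4 and Adam23 also passed with only the 12 agreed arrays, while Adamts1 did not. There 6 of the 65 genes were called, against 20.9% of all features. All 3 passed with the slide as a random block, and a fixed block could not be fitted.

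**Figure D5:**
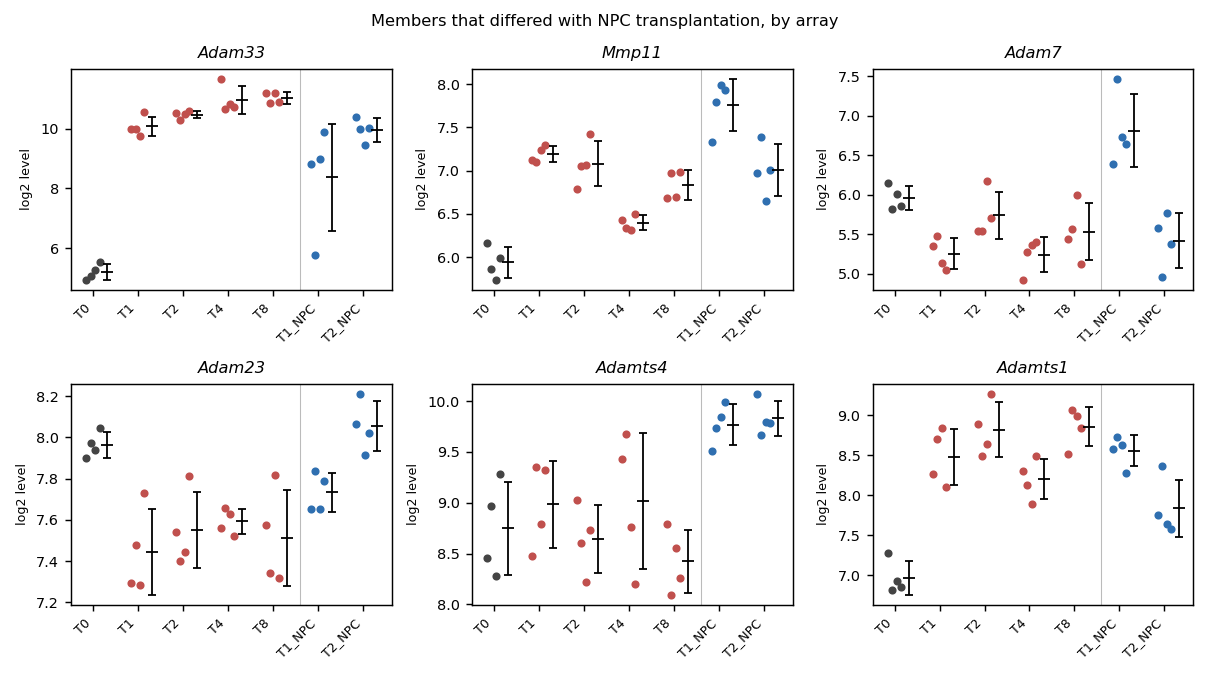
log2 levels by array in the 7 groups for the 6 genes called in a comparison of a transplanted group with its time-matched injured group and well above background on all arrays, with group mean and SD (n = 4); T0 in grey, injured groups in red, transplanted groups in blue, each panel with its own log2 axis. Adam33, Mmp11 and Adam7 differed at 1 week, and Adam23, Adamts4 and Adamts1 at 2 weeks.

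Whether a gene differed at 1 time and not at the other was tested as the difference between both transplantation effects. Adam7 alone passed, with its effect at 1 week larger by 1.87 (SE 0.30, adjusted p = 0.0034), where 0.178% of all features were larger and 0.13% smaller. These were 63 and 46 features, and 1880 and 94 with 75th percentile scaling. With the scan session as a block the value was 1.85 and passed. T1_NPC and T2_NPC sat on different slides scanned in the same session. The test therefore also holds the difference between these slides, which a session block does not remove. For Adam33, Mmp11, Adamts1, Adamts4 and Adam23 the differences between the effects were -1.19, 0.65, 1.06, -0.40 and -0.22, and none passed. Neither Plau nor Plaur passed in either comparison. Lrp1, an endocytic receptor that clears proteases and their complexes with inhibitors, was higher in both (0.41 and 0.61), Furin at 2 weeks (0.37), and of the hyalectans Ncan at 2 weeks (0.47).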

How the data were processed

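RNA of 28 rat spinal cord samples was hybridized to Agilent slides of 4 single-dye arrays. The scanner outputs deposited by the authors hold intensity per spot, corrected for background by Agilent Feature Extraction. The values deposited by the authors are log2 and, per the methods, quantile normalized between arrays (median 7.255 in each column). Leaving out 1639 control spots and 3724 outlier spots (0.307%), 43379 spots were averaged to 41012 probes and 35469 gene names, with no filter on dim probes. Group means were fitted to all arrays with limma 3.58.1 (R 4.3.3), with empirical Bayes moderation and Benjamini-Hochberg adjustment over all features at 0.05, as in the study's methods. Well above background was the mark of the scanner software. For folds from a group with no array well above background, that group was set by array. Each array took the higher of its own level and the lowest level well above background (1.41 to 4.16). Such folds depend on the background correction and are not strict lower limits. Each scanner output was paired with the value column of the same rank order (Spearman 1.00), which was another sample's for 16 arrays on 4 of the 7 slides. Precision is limited by how many arrays a group has.

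The genes and lists were chosen with earlier results of these data known. Named by rule were all Timp genes and the 5 largest rises and 5 largest falls among called genes in each comparison with T0, in T8 against T1 and in both transplantation comparisons. A further 10 genes were given by array, and other called genes by their differences, after their values were seen. Of the list genes, Tll2, Pcolce2, Adamtsl5, Thsd4 and Rbfox3 were not matched, and Cxcr2 was matched as Il8rb. A list gene is not reported here, and its list is given without a count. Lists for astrocytes (1 of 6 higher and 3 lower at T1), endothelium (3 of 6 higher and 1 lower) and skeletal muscle (1 of 5 higher and 2 lower) were read too. Alternatives were other scalings, normexp background (on median intensities, offset 50), dim probe filters, the brightest probe, fewer groups, a 2-fold minimum, moderation with trend, slide, session or replicate blocks, single sessions and leaving out each array. On simulated data for T1 against T0 (200 of 35171 features changed), 63% of changes of size 1 and 91% of size 2 on the log2 scale were called, and 3.75% of calls were false. The simulation changed far fewer features than the 44.4% called for T1 against T0 in the data. These percentages therefore describe only the simulated setting.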

Additional observations from a re-analysis of the deposited data

Results flagged for a closer look

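Values are log2 levels. Among the genes given by array, 159 groups of 4 arrays with at least 1 array well above background were examined, and 6 held an array whose gap to its nearest neighbour, as a share of the range, was above Dixon's critical value, a limit that chance passes in about 1 of 20 groups. In T1_NPC, replicate 2 was highest for Timp3 at 11.00 (others 8.51 to 8.60) and for Timp4 at 11.51 (others 10.03 to 10.25), and lowest for Mmp19 at 7.03 (others 8.23 to 8.33). In T1, replicate 2 read 13.56 for Mmp7 (others 8.47 to 8.90). In T4, replicate 1 read 11.66 for Adam33 (others 10.67 to 10.84) and replicate 4 read 9.07 for Adamts2 (others 8.27 to 8.33).

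The transplantation effect on Adam7 was larger at 1 week than at 2 weeks by 1.87 in the limma interaction test (adjusted p = 0.0034), and its 4 T1_NPC arrays all lay above its 4 T1 arrays. T1_NPC and T2_NPC sat on different slides, so slide and transplantation cannot be told apart in this test.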

How the results depend on the processing

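Reading every scanner output under the sample it came with gave 0 called genes in each comparison, and 11 differences changed sign: Adam11 at T2 (0.13), Adam4 at T1 (0.032) and Mmp17 at T4 (0.24) against T0; Mmp2 (0.11), Mmp8 (0.54), Mmp9 (0.028) and Timp1 (0.93) at T8 against T1; Adam33 (1.75), Adam7 (-0.55) and Mmp11 (-0.027) in T1_NPC against T1; and Adam7 between the effects (-0.20). With a change of at least 2-fold, 22, 20 and 1 genes were called for T2 against T0, T8 against T0 and T2_NPC against T2. Between T2 and T1 the call of 1 gene became 0 in the 12 agreed arrays, in the groups compared alone and in the second session, and 2 with normexp, with the slide as a random or fixed block and with the session block. Between T4 and T2 it became 1 with 75th percentile scaling, either slide block or the session block, and 4 in the second session. T8 against T1 gave 3 in the agreed arrays and 2 in the first session, both with 1 T1 array. T1_NPC against T1 gave 15 with 75th percentile scaling, and 1 in the groups compared alone and with the slide as a random block. T2_NPC against T2 gave 6 in the agreed arrays, where 20.9% of all features were called, and 5 with the brightest probe. The difference between effects gave 8 with 75th percentile scaling. The causes were not tested.

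Leaving out each array in turn gave 32 to 35, 30 to 39, 26 to 32 and 30 to 32 called genes at T1, T2, T4 and T8 against T0, 1 to 2 for T2 against T1, 0 to 2 for T4 against T2, 0 to 0 for T8 against T4, 7 to 14 for T8 against T1 (14 without T1_NPC replicate 2), 1 to 5 for T1_NPC against T1 (1 without T1 replicate 2), 3 to 5 for T2_NPC against T2 and 1 to 1 for the difference between effects. Of 148 called differences, 138 to 148 held in each of these fits. With outlier spots kept (chosen after seeing the data) 147 held, with 75th percentile scaling 146 and with normexp 135. Only 99 of the 148 were at least 2-fold in size, and within the second scan session 119 of 141 tested held. There was no other change of sign. The 75th percentile scaling moved the median difference of all features to -0.28 at T1 and -0.16 at T4 against T0, 0.13 for T2 against T1, 0.16 for T8 against T1, 0.11 for T1_NPC against T1 and 0.14 between the effects. With the replicate block, 36, 36, 30 and 31 genes were called against T0, 10 between T8 and T1, and 147 of 148 differences held. Correlations of same-numbered arrays ran from -0.35 to 0.32, so the numbers were not taken to pair animals. Genes near background, such as Mmp9 at T0, are limited by signal.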
